A study of Mus musculus with 12 samples.

Results

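Gene expression of the proteasome was examined in splenic CD4+ T cells, taking every gene of the deposited table whose mouse symbol begins with Psma, Psmb, Psmc, Psmd, Psme, Psmf or Psmg. The rule matched 57 RefSeq genes, of which 50 were among the 17523 genes of the table; the other 7, Psme2b and 6 pseudogenes, were not analysed here. The 50 genes comprised 8 alpha-ring genes, 7 constitutive beta-ring genes, the 3 immunoproteasome genes Psmb8, Psmb9 and Psmb10, the thymoproteasome gene Psmb11, 6 regulatory ATPases, 11 other regulatory subunits, 3 chaperones of the regulatory particle, 4 activators, 1 inhibitor, 4 chaperones of the core particle, and Psmc3ip and Psme3ip1, which share the prefix by name only. The immunoproteasome genes were also taken apart from the other 47, as single genes and in the sums, while the counts and medians of the members include them.

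The study asked how CD4+ T cells that have switched on GM-CSF differ from those that have not, and sequenced total RNA of sorted splenocytes of Gr/fr mice. These C57BL/6 mice had not been immunised, and all 4 groups came from the same genotype: the Csf2 allele, which encodes GM-CSF, carries a BFP reporter and an iCre recombinase, and the Rosa26 locus carries an eYFP gene behind a loxP-flanked stop. YFP+ cells therefore express GM-CSF or have expressed it in the past, so that YFP labels a history under the Csf2 promoter and not current production. Naïve cells were sorted as CD62L+ CD44-, effector memory (T_EM) cells as CD62L- CD44hi, and both as YFP- and YFP+, with 3 libraries in each of the 4 groups. Each library held between 40974124 and 57822269 reads on genes.

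The proteasome is the protease that degrades ubiquitin-tagged proteins. Its barrel-shaped core is built of alpha rings, which gate entry, and beta rings, which carry the cutting sites, and a regulatory particle with ATPases unfolds the substrate and feeds it in. In lymphocytes and in cells exposed to interferon, Psmb8, Psmb9 and Psmb10 take the place of the cutting subunits Psmb5, Psmb6 and Psmb7, forming the immunoproteasome, which shapes the peptides shown on MHC class I.

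The sorted populations carried the markers of their gates. Of the genes typical of naïve cells, all 3 (Ccr7, Lef1 and Tcf7) were lower in T_EM cells, both for YFP- and for YFP+ cells, and all 5 memory genes (Cd44, S100a4, Il2rb, Cxcr3 and Itgb1) were higher. Cd44 lay between 2334 and 3372 normalized counts in the naïve libraries and between 21778 and 29383 in the T_EM libraries. All 7 T cell genes, Cd3d, Cd3e, Cd3g, Cd4, Cd5, Lat and Thy1, were detected in every library, and Cd4 was at 36078 or more normalized counts in each. Of the 7, 2 were higher and 2 lower in T_EM YFP- cells, and 2 higher and 1 lower in YFP+ cells. The mean of Lat was 29553 in naïve YFP- and 18396 in T_EM YFP- cells.

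Proteasome transcripts as a whole were close to level across the groups. The summed normalized counts of the 50 genes averaged 179565 ± 3508 (SD, n = 3) in naïve YFP- cells, 178339 ± 13412 in naïve YFP+, 186894 ± 8910 in T_EM YFP- and 184387 ± 7557 in T_EM YFP+ cells, with overlapping ranges. Without the immunoproteasome genes, the sums of the other 47 averaged 155115, 154804, 161489 and 157880 in the same order. A normalized count is the read count divided by the library's size factor, which sets the typical gene level between libraries. Expressed instead as a percent of all normalized counts of a library, the sum of the 50 genes was 0.352, 0.388 and 0.389 in naïve YFP- cells, 0.364, 0.364 and 0.380 in naïve YFP+, 0.415, 0.460 and 0.420 in T_EM YFP-, and 0.417, 0.418 and 0.410 in T_EM YFP+. By that measure every T_EM library lay above every naïve library, so the scale of comparison decided whether the sums overlapped. Fewer cells of a kind and less RNA per cell cannot be told apart in bulk samples such as these.

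Per length of transcript, the immunoproteasome gene Psmb8 and the activator genes Psme1 and Psme2 were the most abundant members. On the scale of normalized counts per kilobase of the union of a gene's exons, averaged over the 4 groups, Psme1 stood at 5108, Psmb8 at 4396 and Psme2 at 4043, the highest 3 of the 50 levels. Psme1 and Psme2 encode the alpha and beta subunits of the interferon-inducible activator that caps the core. Psmb5 stood at 3007 and Psmb10 at 2905, in places 5 and 6, whereas Psmb9 measured 1410, in place 20. With the longest transcript as the length the 3 leading genes were the same, in the order Psmb8 with 7793, Psme2 with 7414 and Psme1 with 5682 per kilobase. Psmb10, Psmb5 and Psmb9 then stood in places 8, 11 and 24. At the other end stood Psmb11, the thymus-specific counterpart of Psmb5, with 29 reads over the 12 libraries and at most 4.92 normalized counts in any of them. It was below the filter of 5 normalized counts in at least 3 libraries, which left 49 members for testing.

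**Figure D1:**
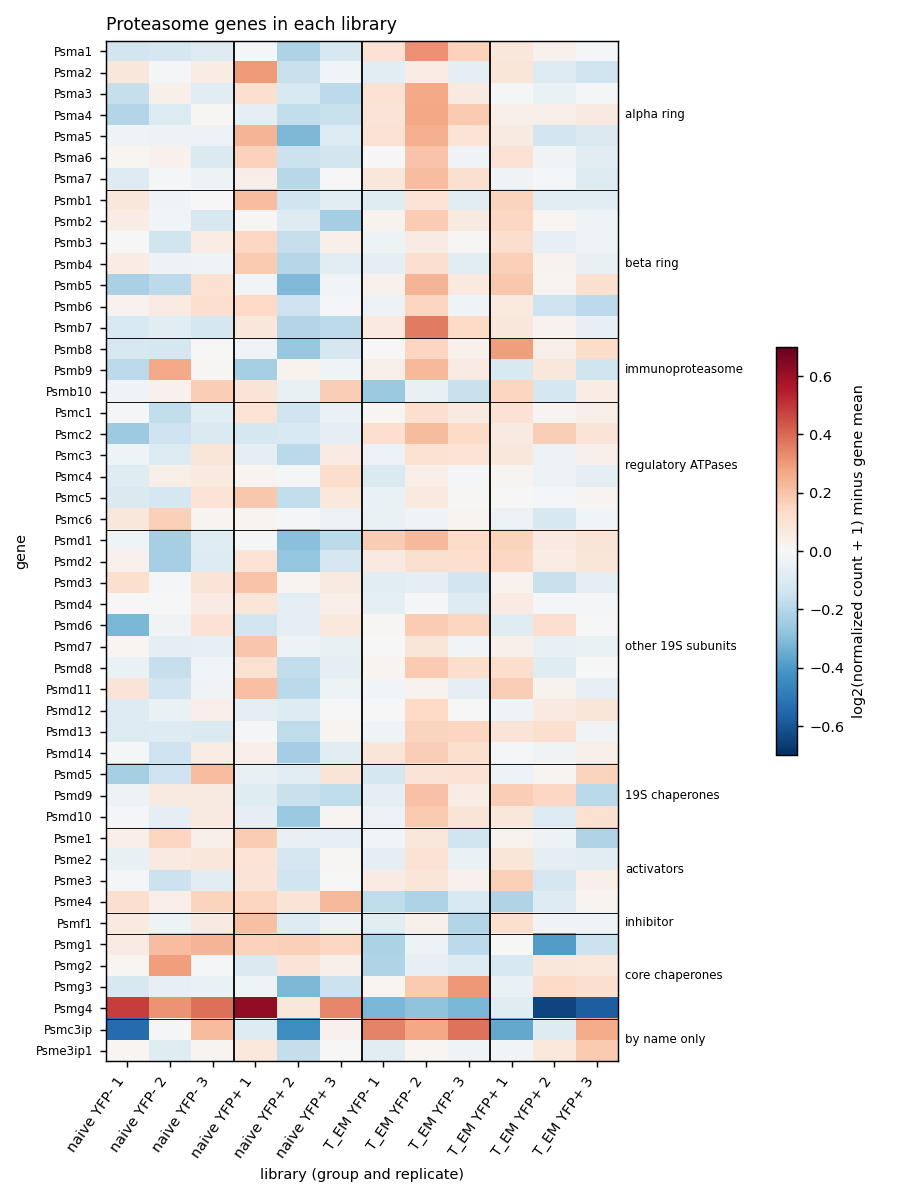
Level of each proteasome gene in each of the 12 libraries, as log2(normalized count + 1) minus the gene's mean over all libraries; genes run down by role, libraries run across by group, and Psma8 and Psmb11 are left out because of their low counts. Psmg4 is lower in the T_EM than in the naïve libraries, and naïve YFP+ replicate 2 is below its group for most genes.

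Libraries of one group did not always sit at the same height for these genes, as the heatmap of single libraries shows. Relative to the mean of its group, naïve YFP+ replicate 2 was lower for most members, with a median deviation of -0.12 on the log2 scale and 4 of 49 members above the mean. Naïve YFP+ replicate 1 deviated the other way, with a median of 0.11 and 41 of 49 members above. T_EM YFP- replicate 2 had 45 of 49 members above its group mean at a median of 0.07, and T_EM YFP- replicate 1 had 6 of 49 above it at a median of -0.06. The same medians over all genes tested were 0.02, 0.00, -0.01 and -0.00, where size factors hold the typical gene near 0. As a percent of all normalized counts naïve YFP+ replicates 1 and 2 did not differ, at 0.364 each.

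T_EM and naïve cells were compared first among YFP- cells, that is, cells without the YFP label of GM-CSF expression. Of the 49 members tested, 9 were called at a limma adjusted p of 0.05 or less (Benjamini-Hochberg over 15587 genes), or 18.4%, while 49.8% of all genes tested were called. Higher in T_EM cells were 6 members (29.9% of all genes were called higher): the alpha-ring genes Psma1, Psma4 and Psma8, the cutting subunit Psmb7, the ATPase Psmc2 and the scaffold subunit Psmd1. Lower were 3 members (19.9% of all genes): the core chaperones Psmg1 and Psmg4 and the activator Psme4. The median log2 fold change of the members was 0.08, against 0.05 over all genes tested. The p-values measure the spread between these samples, 3 for each label. Psma8 passed the filter through the T_EM YFP- libraries alone, and without it 8 of 48 members were called.

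The differences were small. An absolute log2 fold change under 0.5 was found for 47 of the 49 members, 95.9%, and for 50.8% of all genes tested, and the exceptions were Psmg4 and Psma8. For 43 of the 49 the 95% interval of the fold change lay wholly within 0.5 of 0 in either direction. Of all 15587 genes tested it did so for 3708. The median standard error was 0.09 for the members and 0.18 for all genes tested.

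The same comparison among YFP+ cells called 6 of 49 members, or 12.2%, against 41.4% of all genes tested. Psmb8, Psmc2 and Psmd1 were higher in T_EM cells, with 24.7% of all genes called higher, and Psme4, Psmg1 and Psmg4 were lower, with 16.7% of all genes called lower. The median of the members was 0.05 and that of all genes 0.03. An absolute log2 fold change under 0.5 held for 47 members, 95.9%, and for 54.0% of all genes. The count was sensitive to single libraries: it was 2 without naïve YFP+ replicate 2, 1 without naïve YFP+ replicate 3, 3 without T_EM YFP+ replicate 1 and 3 without T_EM YFP+ replicate 3, while 39.9%, 34.9%, 36.3% and 35.9% of all genes tested were called. A fit of only the libraries compared called Psmg4 alone, so that Psmb8, Psmc2, Psmd1, Psme4 and Psmg1 lost their calls, with 35.4% of all genes called. Psmg4 kept its call in each of these.

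**Figure D2:**
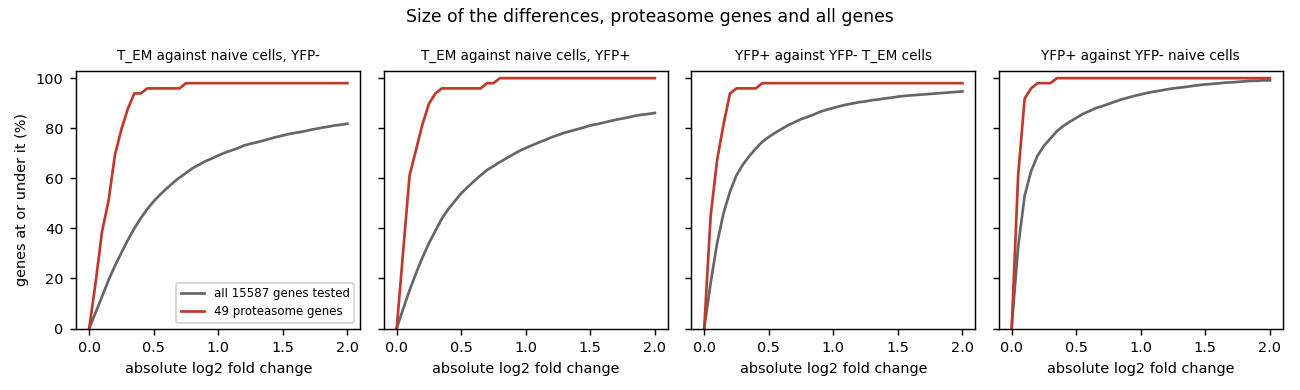
Share of genes (vertical axis, percent) with an absolute log2 fold change at or below the value on the horizontal axis, for the 49 proteasome genes and for all 15587 genes tested, in each comparison. The curve of the proteasome genes rises sooner in each panel, reaching 95.9% at 0.5 in both comparisons of T_EM with naïve cells. The proteasome genes and all genes were not matched for their level.

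The direction of the called members was checked under other scalings, and none changed sign under TMM, total-count scaling or quantile normalization. The scaling did move the medians and the counts. Under TMM, total count and quantile normalization the median of the members in YFP- cells was 0.03, 0.22 and 0.03, and that of all genes 0.01, 0.19 and -0.20. In YFP+ cells the members had 0.04, 0.17 and 0.00, and all genes 0.02, 0.15 and -0.14. Total-count scaling raised the median fold change of all genes by 0.14 in YFP- and 0.12 in YFP+ cells, and then called 21 members higher and 1 lower in YFP- cells, and 12 higher and 1 lower in YFP+ cells, while 48.5% and 40.4% of all genes tested were called. Quantile normalization moved the same medians by -0.25 and -0.17, with 9 members higher and 5 lower in YFP- cells, and 3 higher and 3 lower in YFP+ cells, while 61.0% and 49.3% of all genes tested were called. Over all genes called, the share that was higher in T_EM cells was 60.0% in YFP- cells, 72.9% by total count and 37.7% by quantile normalization. In YFP+ cells it was 59.6%, 72.1% and 39.8% in the same order. Psmg4 was lower in T_EM cells and called under each of these scalings, whereas Psme4 and Psmg1 lost their calls under total-count scaling in both comparisons. Psmb7 lost its call in YFP- cells under quantile normalization, and Psmc2 lost its call in YFP+ cells under TMM and under quantile normalization.

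**Figure D3:**
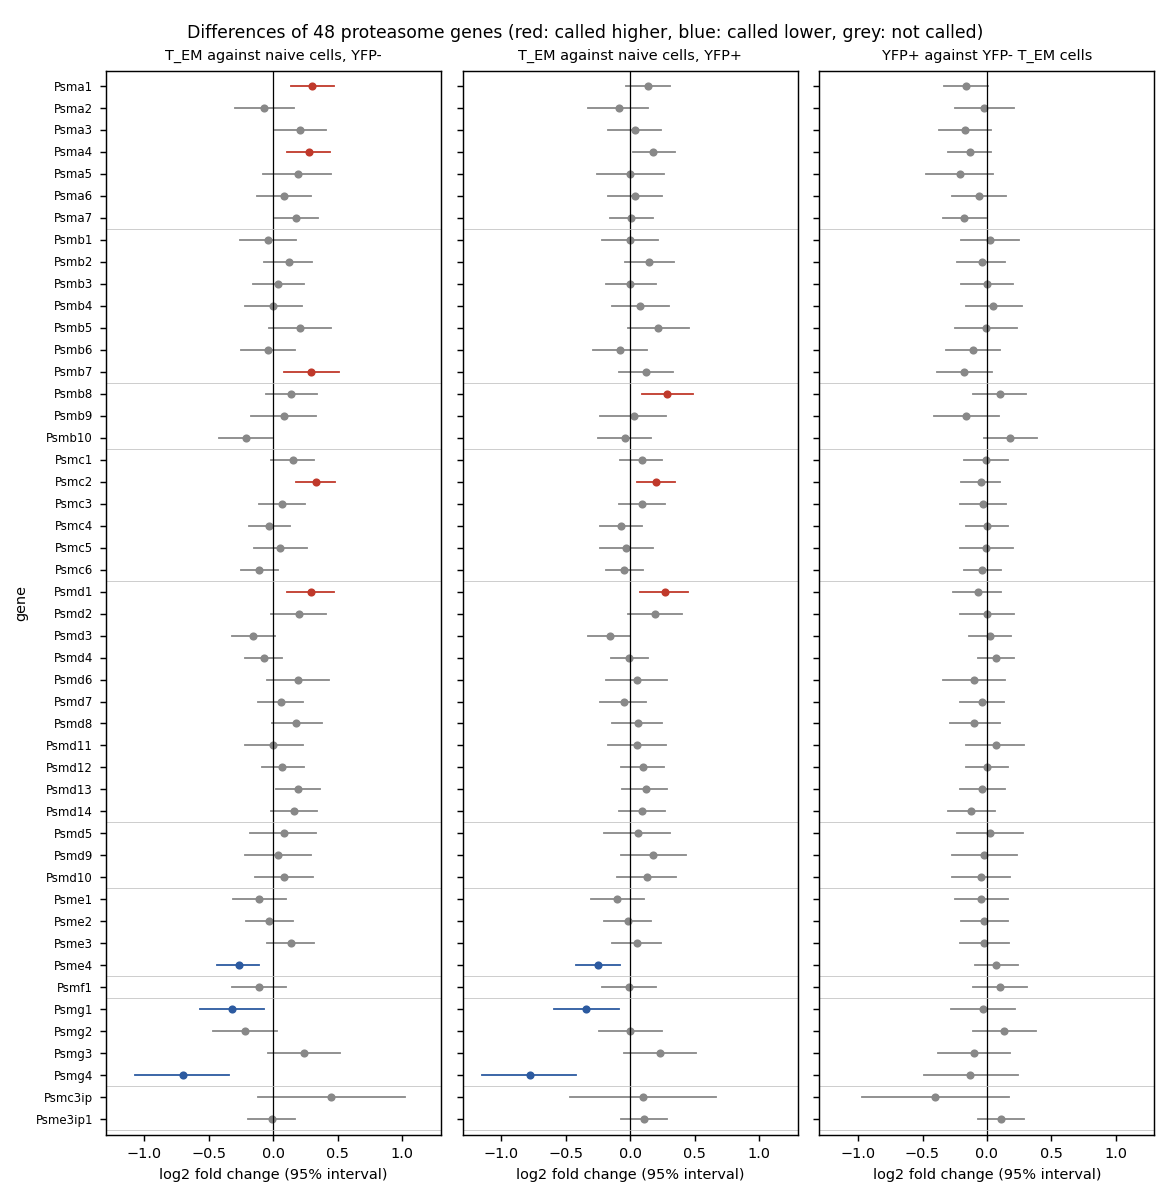
Log2 fold change with its 95% interval (horizontal axis, points and bars) for 48 proteasome genes (vertical axis, grouped by role), for T_EM against naïve cells in YFP- and in YFP+ cells and for YFP+ against YFP- T_EM cells, with Psma8 left out for its wide interval. Psmg4 lies farthest from 0 in the T_EM against naïve panels, at -0.70 and -0.78.

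Within the alpha ring, Psma1 and Psma4 rose in YFP- T_EM cells, 2 of 7 genes without Psma8, where 29.9% of all genes tested were called higher. Psma1 measured 3507, 3523 and 3602 normalized counts in naïve YFP- cells, 3804, 3291 and 3544 in naïve YFP+, 4109, 4773 and 4279 in T_EM YFP-, and 4043, 3917 and 3786 in T_EM YFP+. The T_EM YFP- libraries were thus above all naïve libraries, and the YFP+ groups overlapped. Its log2 fold change was 0.30 (SE 0.08, limma adjusted p = 0.00598) in YFP- cells and 0.14 (adjusted p = 0.161) in YFP+ cells. Psma4 gave 0.28 (adjusted p = 0.00846) and 0.18 (adjusted p = 0.0748). The difference between the YFP- and YFP+ responses, tested as an interaction, was -0.16 for Psma1 (adjusted p = 0.756) and -0.10 for Psma4 (adjusted p = 0.924).

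Psma8 encodes an alpha subunit known from the testis, where it takes the place of Psma7. It was counted at 0, 3 and 3 reads in the naïve YFP- libraries, 2, 0 and 2 in naïve YFP+, 20, 15 and 26 in T_EM YFP-, and 4, 1 and 3 in T_EM YFP+. The 3 T_EM YFP- libraries stood above the other 9, whose ranges overlapped. On the log2(normalized count + 1) scale, which understates the change of low genes, the fold change was 2.76 in YFP- cells and 0.66 in YFP+ cells. Because Psma8 passed the filter only through the T_EM YFP- libraries, where it is high, its tests are not read as results.

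Markers of dendritic cells moved in the same libraries as Psma8. All 7 conventional dendritic cell genes (Flt3, Itgax, Zbtb46, Xcr1, Clec9a, Cd209a and Clec10a) were higher in T_EM YFP- than in naïve YFP- cells, and 5 were higher in T_EM YFP+ than in naïve YFP+ cells. Clec10a passed the filter only through the T_EM YFP- libraries, where it is high, so its test is not read as a result though the counts include it. The sum of the 7 conventional genes was 78.3, 134 and 113 normalized counts in naïve YFP-, 111, 353 and 95.8 in naïve YFP+, 13183, 9371 and 19371 in T_EM YFP-, and 1122, 504 and 1132 in T_EM YFP+ cells, and Itgax was the most abundant. T_EM YFP- cells thus had the highest sums and naïve cells the lowest. Of the 7 plasmacytoid dendritic cell genes (Siglech, Klk1, Cox6a2, Smim5, Pacsin1, Tcf4 and Spib), 6 were higher in T_EM YFP- cells, and in YFP+ cells 4 were higher and 1 lower. Cox6a2 and Smim5 also passed the filter only through the T_EM YFP- libraries, so their tests are not read as results though the counts include them. The sums describe levels only. The sum of the 7 plasmacytoid genes was 6737, 5740 and 6643 in naïve YFP-, 6974, 6367 and 6771 in naïve YFP+, 13808, 9485 and 12863 in T_EM YFP-, and 4856, 6128 and 4200 in T_EM YFP+ cells. The most abundant was Pacsin1, not called in YFP- cells and lower in YFP+ T_EM cells, while Siglech stood at 3367, 1412 and 3263 in T_EM YFP- cells and at 118, 26.9 and 55.1 in T_EM YFP+. Siglech, Klk1 and Cox6a2 were each at 0 in 4 of the 12 libraries, Smim5, Xcr1 and Clec9a in 3 and Clec10a in 2. The part of these cells in the results for Psma8 and for the other genes that differed in T_EM cells was not tested.

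Other lists moved with the T_EM gate as well. All 5 genes of dividing cells (Mki67, Top2a, Cdk1, Ccnb1 and Birc5) were higher in T_EM cells for both YFP states. Their sum was 692, 779 and 603 in naïve YFP-, 902, 1266 and 862 in naïve YFP+, 22382, 23529 and 32569 in T_EM YFP-, and 14554, 13839 and 18722 in T_EM YFP+ cells, with Top2a the most abundant in the naïve libraries and Mki67 in the T_EM libraries, and none at 0 in any library. Of 6 myeloid genes (Lyz2, Csf1r, Cd14, Cd68, Itgam and Adgre1), 5 were higher in T_EM YFP- cells, and in YFP+ cells 1 was higher and 1 lower. Their sum was 632, 1061 and 412 in naïve YFP-, 827, 3882 and 569 in naïve YFP+, 9218, 7579 and 14609 in T_EM YFP-, and 3857, 1982 and 2773 in T_EM YFP+ cells. The most abundant by its mean over the 12 libraries was Csf1r, and in T_EM YFP- cells it was Adgre1, and none was at 0 in any library. The part of dividing cells and of myeloid cells in the proteasome results was not tested.

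Among the 7 constitutive beta-ring genes, Psmb7 alone was called, and in YFP- cells alone. It measured 2105, 2158 and 2081 normalized counts in naïve YFP- cells, 2399, 1966 and 1996 in naïve YFP+, 2382, 2921 and 2501 in T_EM YFP-, and 2396, 2311 and 2180 in T_EM YFP+. The YFP- groups did not overlap and the YFP+ groups did. The log2 fold change was 0.29 (SE 0.10, limma adjusted p = 0.0248) in YFP- and 0.12 (adjusted p = 0.360) in YFP+ cells, with an interaction of -0.17 (adjusted p = 0.834). The YFP- call was lost without naïve YFP- replicate 1, naïve YFP- replicate 3 or T_EM YFP- replicate 2. Each of these fits called 8 members, and they called 45.1%, 45.0% and 43.0% of all genes tested. Over the libraries left out the fold change of Psmb7 lay between 0.21 and 0.35. Psmb5 had fold changes of 0.21 and 0.22 (adjusted p = 0.128 and 0.126) and Psmb6 of -0.04 and -0.08 (adjusted p = 0.751 and 0.532) in YFP- and YFP+ cells. Psmb5, Psmb6 and Psmb7 have pseudogenes and Psmb7 overlaps Gm13586, and the strand used for counting is not given in the sources used here, so the origin of some of their reads is uncertain.

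Of the immunoproteasome genes, Psmb8 was called in YFP+ cells, and Psmb9 and Psmb10 in neither comparison. Psmb8 measured 13674, 13577 and 14817 normalized counts in naïve YFP- cells, 14512, 12307 and 13620 in naïve YFP+, 14764, 16434 and 15084 in T_EM YFP-, and 18116, 15245 and 16187 in T_EM YFP+. The T_EM YFP+ libraries were all above the naïve libraries, while T_EM YFP- replicate 1 fell within the range of naïve YFP- cells. The log2 fold change was 0.29 (SE 0.09, limma adjusted p = 0.0234) in YFP+ and 0.14 (SE 0.09, adjusted p = 0.244) in YFP- cells, and the interaction was 0.16 with a 95% interval from -0.13 to 0.44 (adjusted p = 0.855). The call in YFP+ cells was lost without naïve YFP+ replicate 2, naïve YFP+ replicate 3 or T_EM YFP+ replicate 1, with fold changes from 0.22 to 0.35 over the libraries left out, and in the fit of only the libraries compared.

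Psmb9 measured 4518, 6159 and 5164 normalized counts in naïve YFP- cells, 4363, 5215 and 5020 in naïve YFP+, 5284, 6000 and 5345 in T_EM YFP-, and 4768, 5429 and 4659 in T_EM YFP+. The groups overlapped in both comparisons, and replicate 2 was the highest library in each group. The fold changes were 0.08 in YFP- and 0.03 in YFP+ cells (adjusted p = 0.599 and 0.878).

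Psmb10 was measured at 4841, 5042 and 5560 in naïve YFP- cells, 5253, 4761 and 5554 in naïve YFP+, 4125, 4760 and 4422 in T_EM YFP-, and 5473, 4524 and 5121 in T_EM YFP+. The T_EM YFP- libraries lay below the naïve YFP- libraries, and the YFP+ groups overlapped. The fold change in YFP- cells was -0.21 with a 95% interval from -0.42 to -0.01 and did not pass the threshold (limma adjusted p = 0.0794); in YFP+ cells it was -0.04 (adjusted p = 0.744). Psmb10 was called lower in YFP- cells in 3 of 19 settings, with the replicate block (limma adjusted p = 0.0480), under TMM and by edgeR.

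**Figure D4:**
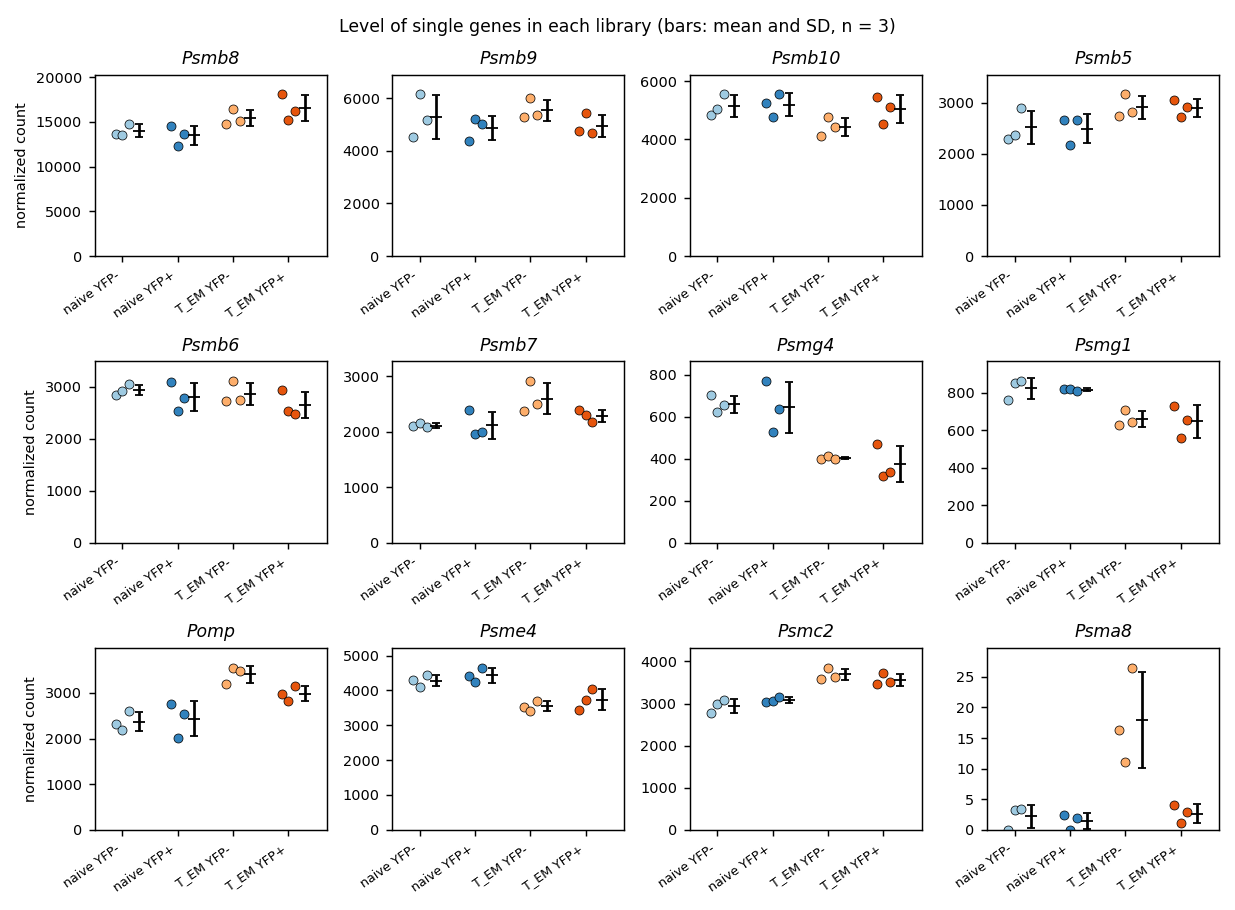
Normalized counts (vertical axis, from 0) of 12 genes in each library, by group; points are libraries and bars are the mean and SD with n = 3. Psmg4 is lower in all 6 T_EM libraries than in any naïve library, and Psma8 is above 10 only in the 3 T_EM YFP- libraries.

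The balance of each immunoproteasome subunit with the constitutive subunit it replaces was taken as a ratio of per-kilobase levels (union of exons), tested by two-sided exact permutation over libraries, for which the smallest possible p with 3 against 3 libraries is 0.10. The ratio of Psmb8 to Psmb5 lay between 1.36 and 1.58 in all 12 libraries, and between 2.42 and 2.81 with the longest transcript as length. Psmb9 to Psmb6 had group means from 0.898 to 0.992, and with the longest transcript as length from 0.588 to 0.649. Psmb10 to Psmb7 was 4.61, 4.69 and 5.36 in naïve YFP- cells, 4.39, 4.86 and 5.58 in naïve YFP+, 3.47, 3.27 and 3.55 in T_EM YFP-, and 4.58, 3.93 and 4.71 in T_EM YFP+.

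The 3 T_EM YFP- libraries had the lowest ratios of Psmb10 to Psmb7 among the 12 libraries. Against naïve YFP- cells the ratio changed by a factor of 0.703, a log2 difference of -0.51 (exact permutation p = 0.10), and between T_EM YFP+ and T_EM YFP- cells the log2 difference was 0.36 (exact permutation p = 0.10). Of the other tests in this family of 12, Psmb8 to Psmb5 between T_EM YFP+ and YFP- cells also had no overlap, with a log2 difference of 0.10 (exact permutation p = 0.10), and the remaining 9 had overlapping groups. Length cancels in these differences, so the choice of transcript changes the level of a ratio and not its contrast between groups.

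**Figure D5:**
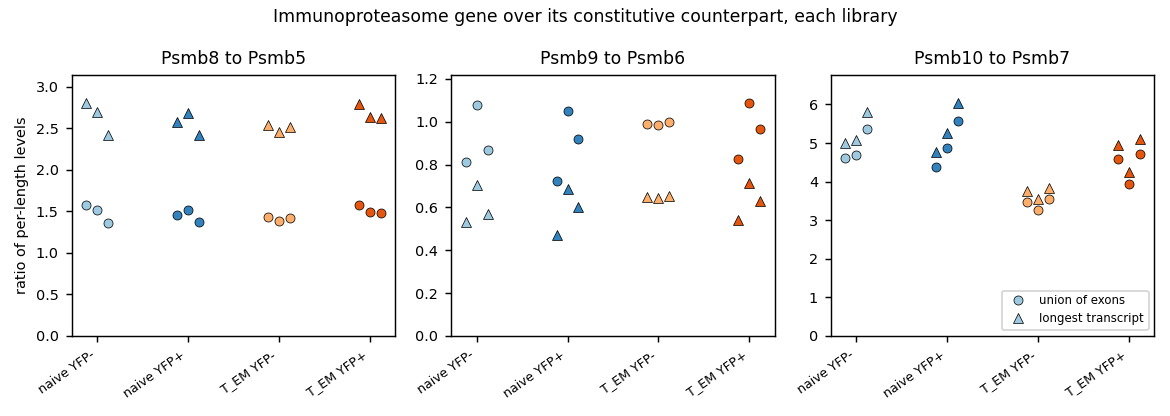
Ratio of the per-kilobase level of each immunoproteasome gene to that of its constitutive counterpart (vertical axis, from 0) in each library, by group, with the union of exons (circles) or the longest transcript (triangles) as the length. Psmb10 to Psmb7 is lowest in the T_EM YFP- libraries, from 3.27 to 3.55 by the union of exons.

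The promoters of 4 of these genes are shown because Psmb8, Psmb9 and Psmb5 stand for the inducible and constitutive cutting subunits and Psmg4 had the lowest fold change. Sequences are from RefSeq on GRCm38.p6, written 5′ to 3′ on the strand of the gene. Psmb8 is given at chr17:34197945-34198194 (plus strand), Psmb5 at chr14:54617996-54618245 (minus strand) and Psmg4 at chr13:34162714-34162963 (plus strand), each 250 bases up to the start of the gene. Psmb9 is given at chr17:34187331-34187555 (minus strand), the 225 bases that separate it from Tap1. Capitals mark letters found by a search of both strands for TTCNNNGAA, the gamma-activated type, GAAANNGAA, the interferon-stimulated type, TGACNNNGC, the antioxidant-response type bound by NFE2L1 and NFE2L2, and CCAAT. No marked letters overlap in these windows.
Psmb8: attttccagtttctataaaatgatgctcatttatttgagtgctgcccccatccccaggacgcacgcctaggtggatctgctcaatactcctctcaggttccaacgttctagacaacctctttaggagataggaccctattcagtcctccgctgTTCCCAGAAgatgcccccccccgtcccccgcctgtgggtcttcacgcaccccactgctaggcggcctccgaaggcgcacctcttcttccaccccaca
Psmb5: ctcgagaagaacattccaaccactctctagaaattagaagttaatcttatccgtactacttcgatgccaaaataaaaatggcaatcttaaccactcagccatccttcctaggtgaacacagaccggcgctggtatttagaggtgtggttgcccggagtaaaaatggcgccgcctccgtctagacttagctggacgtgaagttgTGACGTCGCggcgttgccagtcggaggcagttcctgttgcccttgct
Psmb9: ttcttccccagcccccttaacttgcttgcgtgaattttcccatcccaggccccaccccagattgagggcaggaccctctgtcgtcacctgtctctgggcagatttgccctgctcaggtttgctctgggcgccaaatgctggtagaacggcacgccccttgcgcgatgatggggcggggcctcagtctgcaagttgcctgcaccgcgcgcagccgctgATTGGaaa
Psmg4: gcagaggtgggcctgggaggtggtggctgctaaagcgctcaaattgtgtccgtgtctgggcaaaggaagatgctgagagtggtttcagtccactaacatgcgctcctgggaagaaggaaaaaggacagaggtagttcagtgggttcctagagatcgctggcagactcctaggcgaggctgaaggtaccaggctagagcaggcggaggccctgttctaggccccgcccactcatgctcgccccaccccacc

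In the Psmb8 window the match to TTCNNNGAA ran from 97 to 89 bases before the start, in the Psmb5 window the match to TGACNNNGC from 47 to 39 bases before it, and in the Psmb9 window CCAAT on the opposite strand from 8 to 4 bases before it. The 250 bases shown for Psmg4 held none of the 4 motifs, and its match to GAAANNGAA lay from 16 to 24 bases after the start. Windows from 250 bases before to 50 after the start were at hand for 42 of the 50 members; Psma8, Psmb1, Psmb2, Psmb7, Psmc3, Psmd3, Psmd7 and Psmg2 had none. TTCNNNGAA was found in 3 of the 42 windows (7.14%) and in 8.43% of the windows of 27025 genes, and CCAAT in 15 of 42 (35.7%) and in 38% of all. GAAANNGAA and TGACNNNGC were each found in 6 of 42 (14.3%), and in 8.6% and 12.5% of all windows. These matches describe letters in the sequence only.

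In the regulatory particle, Psmc2 and Psmd1 were called in both comparisons. Psmc2, an ATPase of the ring that unfolds substrates, measured 2769, 2993 and 3078 normalized counts in naïve YFP- cells, 3037, 3073 and 3168 in naïve YFP+, 3588, 3852 and 3634 in T_EM YFP-, and 3458, 3721 and 3516 in T_EM YFP+. Every T_EM library was above every naïve library. The log2 fold change was 0.33 (SE 0.07, limma adjusted p = 0.00175) in YFP- and 0.20 (SE 0.07, adjusted p = 0.0312) in YFP+ cells. The other 5 ATPases had values between -0.11 and 0.15 in YFP- cells and between -0.07 and 0.09 in YFP+ cells and were not called.

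Psmd1, a large scaffold of the particle's base, measured 3671, 3186 and 3540 in naïve YFP- cells, 3709, 3064 and 3295 in naïve YFP+, 4236, 4379 and 4091 in T_EM YFP-, and 4183, 3913 and 3992 in T_EM YFP+. All T_EM libraries were above all naïve libraries. Its log2 fold changes were 0.29 (SE 0.08, limma adjusted p = 0.0121) and 0.27 (SE 0.08, adjusted p = 0.0227). The other 10 subunits outside the ATPase ring, among them the ubiquitin receptor Psmd4 and the deubiquitinase Psmd14, were not called in the limma fit of all 12 libraries without a block, and 7 of them were called in 1 to 4 of 19 settings in YFP- cells. The chaperones of the regulatory particle Psmd5, Psmd9 and Psmd10 were called in none. In YFP- cells the call of Psmd1 was lost without naïve YFP- replicate 2, where 7 members and 46.0% of all genes tested were called. The fold change of Psmd1 was at least 0.23 with any library left out.

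Single libraries also decided the calls of Psmc2 and Psmd1 in YFP+ cells. That of Psmc2 was lost without any 1 of the naïve YFP+ replicates 1, 2 or 3 or the T_EM YFP+ replicates 2 or 3, with fold changes from 0.17 to 0.23. That of Psmd1 was lost without naïve YFP+ replicate 2 or 3 or T_EM YFP+ replicate 1 or 3, with fold changes from 0.20 to 0.34. Psmd1 overlaps Htr2b and Gm22786, and reads in the overlap cannot be assigned with certainty.

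Psme4, the nuclear activator known from histone turnover and from DNA repair, fell in T_EM cells of both YFP states. It measured 4294, 4111 and 4436 normalized counts in naïve YFP- cells, 4415, 4227 and 4651 in naïve YFP+, 3518, 3421 and 3694 in T_EM YFP-, and 3440, 3729 and 4035 in T_EM YFP+. No T_EM library reached the lowest naïve library. The log2 fold change was -0.27 (SE 0.08, limma adjusted p = 0.0103) in YFP- and -0.25 (SE 0.08, adjusted p = 0.0204) in YFP+ cells, and the YFP+ call was lost without naïve YFP+ replicate 3 or T_EM YFP+ replicate 1, with fold changes from -0.31 to -0.19, and in the fit of only the libraries compared. Psme4 overlaps Erlec1 and Gm12103, so the same uncertainty holds.

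The interferon-inducible activator genes Psme1 and Psme2 were not called. Psme1 lay between 9732 and 12714 normalized counts over the 12 libraries, with fold changes of -0.11 in YFP- and -0.10 in YFP+ cells (adjusted p = 0.376 and 0.443), and Psme2 gave -0.03 and -0.02 (adjusted p = 0.779 and 0.884). Psme3, the nuclear relative of these activators, gave 0.14 and 0.05 (adjusted p = 0.222 and 0.685). Psmf1, which encodes the inhibitor PI31, gave -0.11 and -0.01 (adjusted p = 0.358 and 0.950).

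The core chaperones, which guide the alpha ring into shape before the beta subunits join, held the member with the lowest fold change. Psmg4 measured 701, 622 and 653 normalized counts in naïve YFP- cells, 770, 528 and 635 in naïve YFP+, 401, 411 and 400 in T_EM YFP-, and 472, 320 and 335 in T_EM YFP+. All 6 T_EM libraries were below all 6 naïve libraries. Psmg4 fell to 0.615 of the naïve level in YFP- cells (log2 fold change -0.70, SE 0.17, limma adjusted p = 0.00395) and to 0.581 in YFP+ cells (log2 fold change -0.78, SE 0.17, adjusted p = 0.00247).

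Its partner Psmg3, with which Psmg4 forms a heterodimer, did not follow. Psmg3 measured 373, 388 and 391 normalized counts in naïve YFP- cells, 396, 325 and 364 in naïve YFP+, 407, 459 and 499 in T_EM YFP-, and 391, 443 and 437 in T_EM YFP+. The YFP- groups did not overlap, with T_EM libraries the higher, and the YFP+ groups did. Its fold changes were 0.24 (adjusted p = 0.145) and 0.23 (adjusted p = 0.174).

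Psmg1, which pairs with Psmg2, fell in both comparisons. It measured 761, 850 and 864 in naïve YFP- cells, 819, 822 and 810 in naïve YFP+, 627, 710 and 643 in T_EM YFP-, and 732, 557 and 658 in T_EM YFP+, and again no T_EM library reached a naïve library. The log2 fold changes were -0.32 (SE 0.11, limma adjusted p = 0.0333) and -0.34 (SE 0.11, adjusted p = 0.0302). Psmg2 gave -0.22 (adjusted p = 0.128) and 0.00 (adjusted p = 0.983). The Psmg1 call in YFP- cells was lost without naïve YFP- replicate 2 or 3 or T_EM YFP- replicate 1 or 3, with fold changes from -0.38 to -0.29. In YFP+ cells it was lost without naïve YFP+ replicate 1, 2 or 3 or T_EM YFP+ replicate 2 or 3, with fold changes from -0.43 to -0.24.

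With the replicate number as a block in the fit, 17 of 49 members were called between T_EM and naïve YFP- cells, 11 higher and 6 lower, among them all 9 called without the block. The 8 others were Psma3, Psma7, Psmd2, Psmd6 and Psmd13, higher in T_EM cells, and Psmb10, Psmd3 and Psmg2, lower. The blocked fit called 58.4% of all genes tested. In YFP+ cells the blocked fit called 9 members, including the 6 called without it, and 51.0% of all genes tested; the 3 others were Psma4 and Psmd2, higher, and Psmd3, lower.

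YFP+ and YFP- cells were then compared within T_EM cells, asking how a history of GM-CSF expression relates to proteasome transcripts. By limma 0 of 49 members were called, where 6.97% of all genes tested were, and edgeR and DESeq2 called 0 as well. At an unadjusted p under 0.05 were 2 members, Psma7 with a log2 fold change of -0.18 (limma adjusted p = 0.258) and Psma8, at -2.40, whose test is not read because it passed the filter through T_EM YFP- libraries alone. The median of the members was -0.03 and that of all genes -0.01. For 47 of the 49 members the 95% interval lay within 0.5 of 0 in either direction. Of all 15587 genes tested it did so for 6637.

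The 7 alpha-ring genes besides Psma8 had values from -0.21 to -0.02 between YFP+ and YFP- T_EM cells, with none called, while 8209 of the 15587 genes tested had values below 0. The median of the members was -0.00 under TMM and -0.07 under total-count scaling. The immunoproteasome genes gave 0.10 for Psmb8, -0.16 for Psmb9 and 0.18 for Psmb10 (adjusted p = 0.736, 0.583 and 0.385). Quantile normalization moved the share of higher among all called genes from 33.0% to 46.0% in this comparison, with no member called.

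Within naïve cells YFP+ and YFP- libraries differed little. By limma 0 of 49 members were called, with 0 at an unadjusted p under 0.05 and 0 by edgeR and by DESeq2, and 0.00642% of all genes tested, a single gene, were called. The fold changes of the members lay between -0.30 and 0.07 with a median of -0.02, against 0.01 over all genes, and 47 of the 49 intervals lay within 0.5 of 0. The lowest value belonged to Psma8, at 0 to 3.46 normalized counts in these libraries.

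The interaction of cell state and YFP status, which asks whether the T_EM difference depends on YFP, called 0 of 49 members by limma, with 0 at an unadjusted p under 0.05 and 0 by edgeR and by DESeq2. Of all genes tested 3.55% were called. The median was -0.02 for the members and -0.01 for all genes, and 43 of the 49 intervals lay within 0.5 of 0. Of all 15587 genes tested, 4473 had such an interval. The comparisons of T_EM with naïve cells and those of YFP+ with YFP- cells share libraries, so their values are given side by side without a measure of likeness.

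Genes that act with the proteasome were taken from a list of 28, of which 27 were in the table and all 27 were tested. Between T_EM and naïve YFP- cells 10 were called, 37.0% against 49.8% of all genes tested, 5 higher and 5 lower, with a median of -0.05. In YFP+ cells 9 were called, 33.3% against 41.4% of all genes tested, 4 higher and 5 lower, with a median of 0.06. The replicate block called 12 and 11, edgeR 9 and 9 (3 higher and 6 lower in YFP- cells), and DESeq2 11 and 10. Of all genes tested the block called 58.4% and 51.0%, edgeR 50.1% and 40.6%, and DESeq2 51.0% and 43.0%. Pomp, the maturation factor that brings beta subunits into the core, rose by 0.53 (SE 0.11, limma adjusted p = 0.00178) in YFP- and 0.31 (adjusted p = 0.0452) in YFP+ cells, where edgeR did not call it (adjusted p = 0.0521). It measured 2315, 2187 and 2601 normalized counts in naïve YFP- cells, 2755, 2012 and 2543 in naïve YFP+, 3205, 3554 and 3473 in T_EM YFP-, and 2986, 2826 and 3154 in T_EM YFP+. All T_EM libraries were above all naïve libraries, the reverse of the order seen for Psmg4.

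Among transcription factors that control proteasome genes, Nfe2l2 fell in both comparisons, and the call of Nfe2l1 depended on the test. Nfe2l2 measured 4820, 4150 and 4257 normalized counts in naïve YFP- cells, 4497, 4071 and 4267 in naïve YFP+, 1955, 1866 and 1967 in T_EM YFP-, and 2377, 2176 and 2352 in T_EM YFP+, so that the T_EM libraries were all below the naïve ones. The log2 fold change was -1.19 (SE 0.08, limma adjusted p = 1.39e-07) in YFP- and -0.89 (SE 0.08, adjusted p = 2.09e-06) in YFP+ cells. Nfe2l1, which drives the recovery of proteasome subunits when the proteasome is inhibited, gave 0.28 (adjusted p = 0.0336) in YFP- cells and 0.26 (adjusted p = 0.0562) in YFP+ cells, where it was not called, with an interaction of -0.02 (adjusted p = 0.997). By edgeR Nfe2l1 was called in YFP+ and not in YFP- cells (adjusted p = 0.0473 and 0.0553), and DESeq2 and the replicate block called it in both.

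Among interferon-related factors, Irf1 fell in both comparisons, with log2 fold changes of -0.54 (adjusted p = 0.00148) and -0.37 (adjusted p = 0.0178). Nlrc5, the activator of MHC class I genes, was not called in either, nor were Ngly1 and Zfand5. Among genes of MHC class I loading, the chaperones Pdia3 (0.45 and 0.59) and Calr (0.43 and 0.37) rose in both comparisons, while Tap1, Tap2, Tapbp, B2m and Erap1 were not called, with Tap1 at 0.01 and 0.08.

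Of the subunits and partners outside the symbol rule, the ubiquitin receptor Adrm1 fell in both comparisons (-0.19 and -0.20), the adaptor Ecpas was called in YFP+ cells (0.21, adjusted p = 0.0312; in YFP- cells 0.17, adjusted p = 0.0567, and 0.0188 with the replicate block, where it was also called by DESeq2 and not by edgeR; interaction 0.03, adjusted p = 0.994), and Sem1, Uchl5, Usp14 and Akirin2 were not called. Among the shuttle factors that carry ubiquitinated proteins, Ubqln4 (-0.40 and -0.28) fell in both, and Rad23b and Ubqln1 were not called. Under total-count scaling Adrm1 gave -0.05 and -0.08 and Ubqln4 -0.26 and -0.16, while Ecpas gave 0.31 and 0.33. Ubqln2 (-0.26 and -0.20) was called lower in both with the replicate block (limma adjusted p = 0.0105 and 0.0457) and in YFP- cells by edgeR, and not without the block by limma. Ddi2, the protease that activates Nfe2l1, gave 0.32 (adjusted p = 0.0445) in YFP- and -0.18 (adjusted p = 0.270) in YFP+ cells, with an interaction of -0.50 (adjusted p = 0.192); its groups overlapped, and edgeR did not call it in YFP- cells (adjusted p = 0.0687). Rps27a (-0.77 and -0.80), a fusion of ubiquitin with a ribosomal protein, fell in both, and the polyubiquitin gene Ubb was not called.

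Within T_EM cells the comparison of YFP+ with YFP- called 0 of these 27 genes by limma, with 3 at an unadjusted p under 0.05, 1 called by edgeR and 3 by DESeq2. Of all genes tested limma called 6.97%, edgeR 7.22% and DESeq2 10.2%. Within naïve cells 0 were called by limma, with 0 at an unadjusted p under 0.05 and 0 by either count test. The interaction called 0 by limma, with 2 at an unadjusted p under 0.05 and 0 by either count test, while limma called 3.55%, edgeR 3.08% and DESeq2 5.41% of all genes tested. With the replicate block limma called 2 within T_EM cells, Ddi2 at -0.41 (adjusted p = 0.0132) and Nfe2l2 at 0.25 (adjusted p = 0.0104), and the same 2 for the interaction, at -0.50 (adjusted p = 0.0456) and 0.29 (adjusted p = 0.0473). Within naïve cells the block called 0 of the 27. Of all 15587 genes tested, the block called 1869 within T_EM cells, 890 for the interaction and 6 within naïve cells.

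The remaining marker lists gave the following. The 5 B cell genes (Cd79a, Cd79b, Ms4a1, Pax5 and Ebf1) included 3 lower and 1 higher in T_EM YFP- cells, and 0 were called in YFP+ cells. Their sums lay between 312 and 1359 over the 12 libraries, with Cd79a the most abundant in the naïve and Cd79b in the T_EM YFP- libraries, and none at 0. The pair Cd8a and Cd8b1 had 1 gene higher and 1 lower in T_EM YFP- cells, and 0 higher and 1 lower in YFP+ cells. Their sums lay between 187 and 1490, with Cd8b1 the more abundant and neither at 0. Of the NK cell genes, 3 of 4 were in the table (Ncr1, Klrb1c and Eomes), and 2 were higher in YFP- and 3 in YFP+ T_EM cells. Their sums lay between 241 and 2032, with Klrb1c the most abundant in T_EM YFP+ libraries and Eomes in the other 9. Ncr1 was at 0 in 8 libraries. It passed the filter only through the T_EM YFP+ libraries, where it is high, so its test is not read as a result. The erythroid genes, 2 of 3 in the table (Hba-a1 and Alas2), were not called in either comparison of T_EM with naïve cells; their sum reached 1423 in naïve YFP+ replicate 2, the library that was low for most proteasome genes, against 362 and 35.3 in the other 2 libraries of that group, and 1235 in T_EM YFP+ replicate 1, where 37 of 49 proteasome genes were above the group mean, with Hba-a1 the more abundant and Alas2 at 0 in 3 libraries. The neutrophil genes, 3 of 5 in the table (S100a8, S100a9 and Mpo), summed to 229 in naïve YFP+ replicate 2 and to 138 or less elsewhere, S100a9 being the most abundant by its mean, with S100a8 at 0 in 3, S100a9 in 4 and Mpo in 5 libraries. The part of these cells in the proteasome results was not tested.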

How the data were processed

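RNA was extracted with RNeasy columns and sequenced on a HiSeq2500 from TruSeq Stranded Total RNA libraries. The authors mapped reads to mm10 with DRAGEN, counted them with Rsubread and deposited a signal for each gene, the count divided by a DESeq2 size factor; their versions and the strand setting are not given in the sources used here. Division by the smallest step returned whole reads for 100% of values, except that the T_EM YFP+ replicate 1 column failed a separate check of this and its reads are taken on the same reckoning. Entrez identifiers were matched to RefSeq symbols (16749 of 17523).

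Members and lists were chosen with earlier results of these data known, and some genes first placed on the pathway and marker lists were taken off and are not reported here. Named genes are the immunoproteasome genes and counterparts, activators, the inhibitor, up to 5 called members in each direction, members past a log2 fold change of 1 or below the filter, and the listed pathway genes. Psma7, Psmg2, Psmg3, Psmd4, Psmd14, members called only under the replicate block and the chaperones of the regulatory particle were picked for mention after their values were seen. Genes reaching 5 normalized counts in 3 or more libraries were fitted with limma 3.58.1 (trend) in R 4.3.3 on log2(normalized count + 1), with 4 group means over 12 libraries and Benjamini-Hochberg adjustment over 15587 genes. On the recovered reads edgeR 4.0.16 called 7810, 6321, 1126 and 2 genes and DESeq2 1.42.0 7954, 6704, 1588 and 14, for T_EM against naïve in YFP- and in YFP+ cells and YFP+ against YFP- in T_EM and in naïve cells; limma called 7769, 6453, 1087 and 1. The script was tested on simulated data. Tables and figures used Python 3.11.15, pandas 2.3.3 and matplotlib 3.10.9.

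Libraries with the same replicate number deviated together from their group means: the correlation over genes was 0.17, 0.14 and 0.23 between T_EM and naïve YFP- cells, 0.31, 0.49 and 0.36 between YFP+ and YFP- naïve cells, and 0.18, 0.34 and 0.36 between YFP+ and YFP- T_EM cells. For these comparisons a pairing by replicate number therefore rests on the correlations alone. What libraries with the same number have in common, such as the mouse, was not tested. For T_EM and naïve YFP+ cells the correlation was 0.20, -0.02 and 0.06, so a pairing there would rest on the links of both groups with the YFP- libraries. Between naïve YFP+ and T_EM YFP- cells it was 0.13, 0.10 and 0.21, and between naïve YFP- and T_EM YFP+ cells 0.18, 0.06 and 0.14. Several members overlap other annotated genes, among them Psma3, Psma4, Psmb5, Psmb7, Psmd1, Psme1, Psme4 and Psmf1, and reads in such overlaps are of uncertain origin.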

Additional observations from a re-analysis of the deposited data

How the results depend on the processing

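Between T_EM and naïve YFP- cells, 9 members were called, with 22 by total-count scaling, 14 by quantile normalization and 17 with the replicate block. Of all genes tested 49.8%, 48.5%, 61.0% and 58.4% were called in the same order. The counts of 9, 22 and 17 include Psma8, whose tests are not read. With an absolute log2 fold change of at least 1 or 2 no member besides Psma8 passed. Of all genes tested, 69.1% had an absolute value of 1.00 or less and 81.8% of 2.00 or less. Leaving out each library gave 7 to 9, while 43.0% to 46.0% of all genes tested were called. In YFP+ cells, 6 were called, with 13 by total-count scaling, 1 in a fit of only the libraries compared and 0 at fold thresholds of 1 or 2. Of all genes tested 41.4% were called in the main fit, 40.4% by total-count scaling and 35.4% in the fit of only the libraries compared. An absolute log2 fold change of 1.00 or less was found for 72.1% of all genes tested, and of 2.00 or less for 86.1%. Leaving out each library gave 1 to 5 there, while 34.9% to 39.9% of all genes tested were called. The replicate block gave 9 there, with 51.0% of all genes tested called. YFP+ against YFP- T_EM cells gave 0, with 1 for a prior count of 5 and 1 in a fit of only the libraries compared, in both Psma8, whose tests are not read. Of all genes tested 6.97%, 8.56% and 8.92% were called in the same order. Every other alternative for that comparison, and all those run for naïve cells and for the interaction, gave 0, the replicate block included. The cause of these changes was not tested. Among the 19 settings run for each T_EM comparison besides the fold thresholds, the main one included, Psmg4 was called in 19 of both, Psma1, Psma4 and Psmc2 in 19 for YFP- cells, with Psmd1 and Psme4 in 18, Psmb7 in 15 and Psmg1 in 14; for YFP+ cells Psmb8 and Psme4 were called in 15, Psmd1 in 14, Psmg1 in 12 and Psmc2 in 10. Over all genes, YFP+ against YFP- T_EM cells called 1087, with 1869 under the replicate block and 638 without T_EM YFP- replicate 3; the interaction called 554, with 844 by DESeq2, 890 under the block, 376 with a prior count of 0.1, 346 without T_EM YFP- replicate 1 and 279 without T_EM YFP- replicate 3. In naïve cells 1 gene was called, with 14 by DESeq2, 6 under the block, 3 with a prior count of 0.1, 2 by TMM (1 higher and 1 lower) and 2 by edgeR, and 0 in a fit of only the naïve libraries and without any 1 of 4 of the 6 libraries.

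With 3 libraries a group, the members had a median standard error of 0.09. In YFP- cells log2 differences of 0.24 (Psmg3) and 0.45 (Psmc3ip, SE 0.26) were not called. Psma8 rests on 79 reads in all. The T_EM libraries carry markers of dendritic and myeloid cells, most in YFP- cells, so that the results for whole populations and for T cells alone cannot be told apart there.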
